A study of Rattus norvegicus with 2 samples.

Results

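Proteasome subunit genes were compared between cervical lymph nodes of control rats and of rats under restraint stress. The members were all genes on the array whose name has the form Psm, one letter from a to f and a number. This rule found 44 genes, measured by 50 probes, of 36174 genes on the array. The signal was well above background on both arrays for 43 of them, and these 43 were used, of 21096 genes well above background on at least 1 array. The remaining gene, Psma8, a testis form of an alpha subunit, gave intensities of 2.66 in C and 2.07 in RS, neither of which stood well above background. The 43 genes are 14 subunits of the core particle, 3 of the immunoproteasome, 25 of the regulatory particles and Psmb11, a core subunit of thymus epithelium.

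By the labels and the methods, the animals were male Sprague-Dawley rats, 10 to 12 weeks old, with no genetic change given. The C group was not stressed. The RS group was tied supine to a board, and both groups were killed with pentobarbital after halothane anesthesia. Each group is represented by 1 array, and the study's text does not say how many rats an array stands for or whether RNA was pooled. The labels give no restraint time for the RS array, while the study's microarray section compares the control group with the shortest of its restraint times. The labels and the study's methods name no other treatment. The file headers name another scanner than the methods and a scan before the stated period of the experiments, so how the handling described applies to these arrays is uncertain.

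The proteasome is the barrel-shaped protease that degrades proteins tagged with ubiquitin. Its core particle is a stack of rings of alpha subunits (Psma genes), which gate the entrance, and beta subunits (Psmb genes), of which Psmb5, Psmb6 and Psmb7 carry the cutting sites. In lymphoid cells and after interferon, Psmb8, Psmb9 and Psmb10 take the places of Psmb5, Psmb6 and Psmb7 and form the immunoproteasome, which changes the peptides made for class I antigen presentation. The core is capped by the 19S particle (Psmc ATPases and Psmd subunits), which unfolds ubiquitinated proteins, or by ubiquitin-independent activators (Psme genes), while Psmf1 encodes PI31, a core-binding protein first described as an inhibitor.

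A probe is a 60-base strand with the sense sequence of a transcript, and its intensity is the Cy3 fluorescence of the labeled antisense cRNA bound to it. Probes of exchanged subunits are printed 5′ to 3′ for Psmb5 with Psmb8 and for Psmb6 with Psmb9, and no bases are in capitals. The comparison of Psmb8 with Psmb5 rests on the brighter Psmb8 probe, which has no mapped position and is not shown. The probes of Psmb7 and Psmb10 are not shown either. The positions are those of the files, on build rn4.
Psmb5, chr15:32690134-32690193, reverse strand: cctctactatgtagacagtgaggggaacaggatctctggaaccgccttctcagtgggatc
Psmb8, dimmer of its probes, chr20:4787006-4787484, reverse strand: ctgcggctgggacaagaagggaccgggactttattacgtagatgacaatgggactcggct
Psmb6, chr10:57372332-57372391, forward strand: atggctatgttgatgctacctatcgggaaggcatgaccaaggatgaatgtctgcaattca
Psmb9, chr20:4806341-4806400, forward strand: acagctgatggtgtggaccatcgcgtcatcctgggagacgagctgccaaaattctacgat
The Psmb8 probe extends over 479 genomic bases and so crosses an exon junction, whereas the other probes lie within 60 genomic bases. The files give no exon structure beyond this.

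The scale of each array was set by its 75th percentile over probes, which was 189 for C and 176 for RS, and a difference is the log2 of the scaled RS signal minus that of the scaled C signal. The error given after ± is the spot error, which is built from the errors the Feature Extraction software assigns to each spot and holds nothing of the variation between animals. With 1 array per group there was no spread between animals and no test, so the words higher and lower describe these 2 arrays. Over the 21096 genes the median difference was 0.016, with the middle 50% between -0.20 and 0.21. Of the 43 members, 31 were in the quartile of 5274 genes with the most signal, in which the middle 50% lay between -0.10 and 0.16. In this tissue, fewer cells of a type and less RNA per cell cannot be told apart. The markers of lymph node cells were present on both arrays, with all 6 B cell, all 7 T cell and all 4 stromal genes measured being above background.

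No proteasome subunit differed by 2-fold or more in either direction. Among all genes, 3.46% were at least 2-fold higher and 4.28% at least 2-fold lower on the RS array, and in the quartile with the most signal 1.52% and 2.26%, shares so small that none of 43 is near the background. The differences ran from -0.56 for Psme1 to 0.33 for Psma3, with a median of 0.073 over the 43 members. By class, the core was above 0 in 12 of 14 genes (median 0.17) and the regulatory class in 16 of 25 (median 0.058). The immunoproteasome was below 0 in all 3 genes (median -0.26). The constitutive core and 19S genes together had small positive differences in 28 of 34, with a median of 0.12. The immunoproteasome subunits, the activators and PI31 were lower on the RS array in all 8 genes, with a median of -0.24. These joint groupings divide the regulatory class along the signs of its values, so their counts test nothing. Over all genes, 47.9% were below 0. Psmb8 changed sign under quantile normalization, when its probes were averaged and on its other probe. Without any scaling 9 of 14 core subunits and 9 of 20 genes of the 19S group were above 0.

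**Figure D1:**
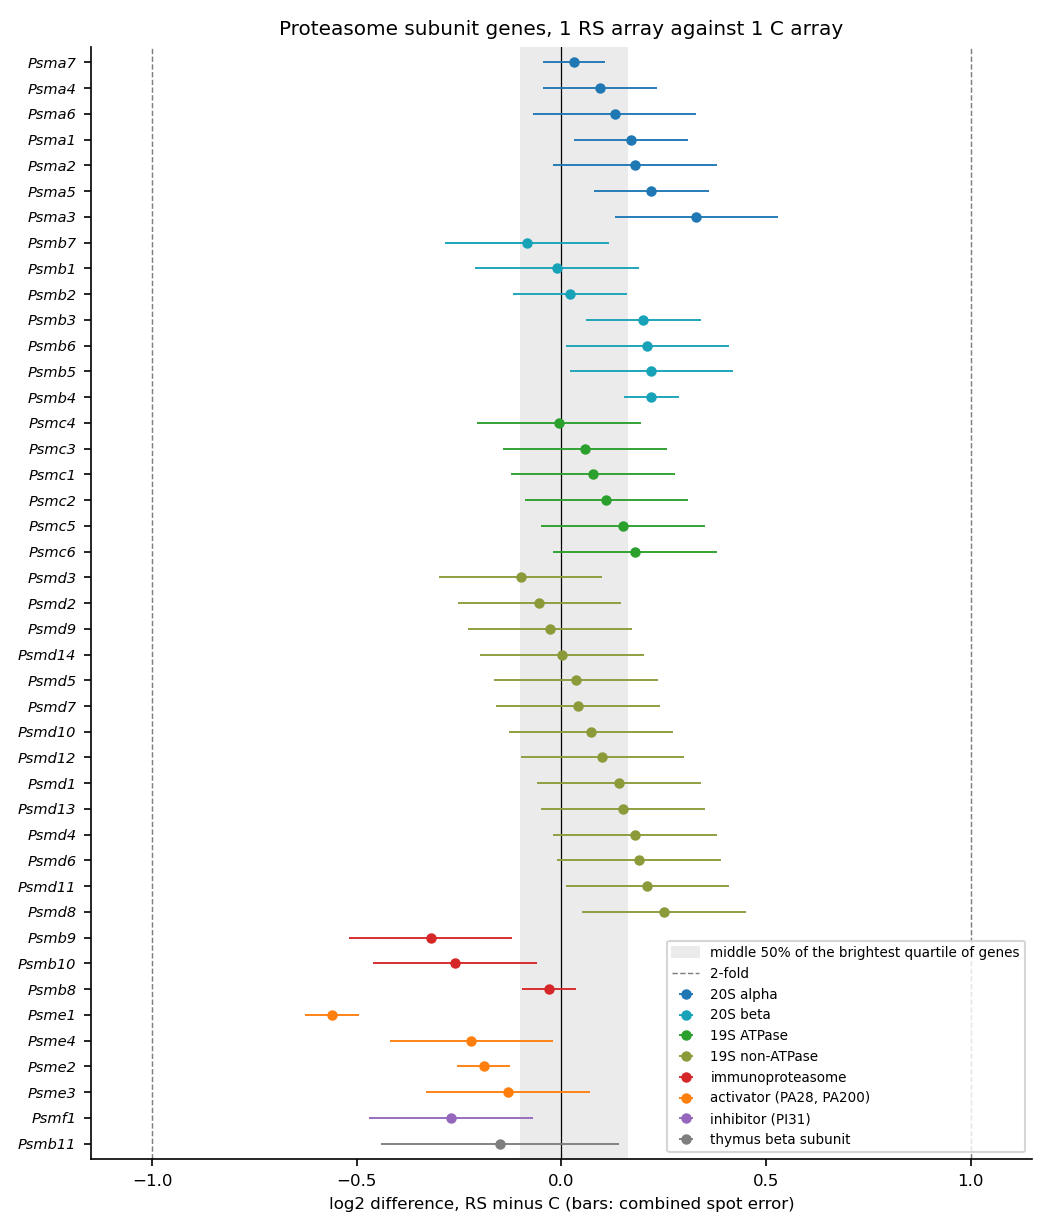
Log2 difference (RS minus C) of the 43 proteasome subunit genes well above background, grouped by their place in the complex. Points are 1 array against 1 array, bars are the combined spot error, the gray band is the middle 50% of the quartile of genes with the most signal, and dashed lines mark 2-fold. All points lie between -0.56 and 0.33, and the 8 immunoproteasome, activator and inhibitor genes lie below 0, Psmb8 (-0.03) changing sign under quantile normalization and when its probes are averaged. The activator, inhibitor and 19S genes form the regulatory class, with a median of 0.058. Without scaling, the 20S alpha and beta subunits still have a median above 0 (0.075) and the 19S genes do not (-0.012).

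At a smaller limit, where the higher array exceeds the lower by 25%, 1 member was higher, Psma3, and 1 was lower, Psme1. Among all genes, 16.9% were higher and 17.1% lower by at least 25%, and in the quartile with the most signal these shares were 9.16% and 7.34%. With 1 of 43 members in either direction, the difference from these shares was not tested. Outside the 95% range of the spot error (a normal range around 0), 1 member was higher, Psmb4, and 2 were lower, Psme1 and Psme2, against 11.0% and 10.2% of all genes. The members called in this way were measured by probes printed 10 times, which have the smallest spot errors. One member, Psme1, lay outside the central 90% of the quartile of genes with the most signal, which ran from -0.41 to 0.46.

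**Figure D2:**
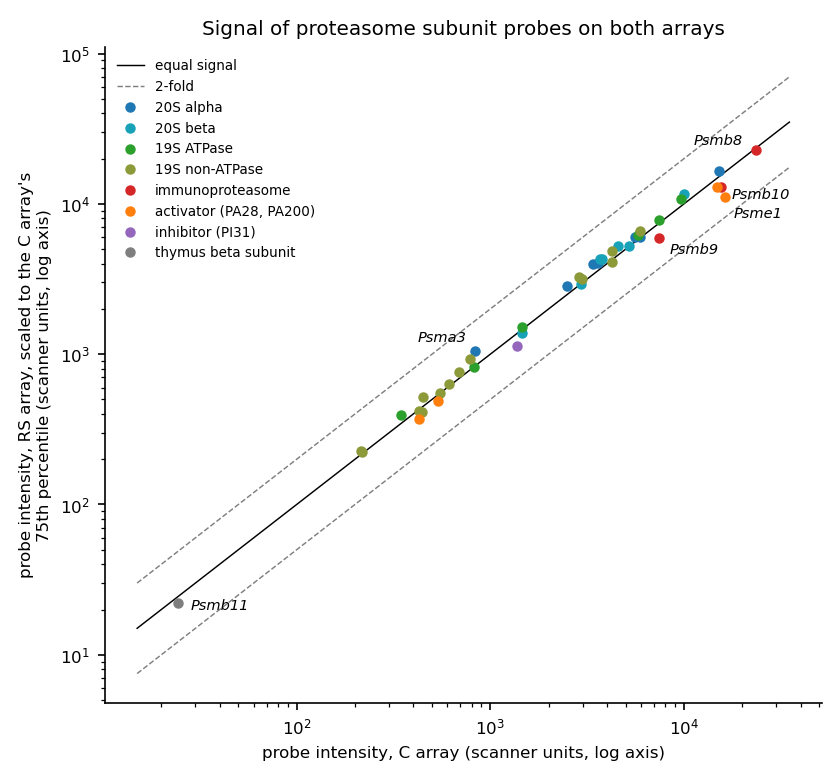
Intensity of the 43 proteasome subunit probes on the C array (x axis) and the RS array (y axis, scaled to the 75th percentile of the C array), both in scanner units on log axes. Each point is 1 gene, the solid line marks equal signal and the dashed lines 2-fold. Every point lies within the 2-fold lines, and Psme1 (16272 on the C array, -0.56) is the farthest from equal signal.

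The alpha subunits of the core form its outer rings. All 7 that were measured had a difference above 0, from 0.031 to 0.33, with a median of 0.17. Psma3 measured 838 in C and 986 in RS, a difference of 0.33 ± 0.20 and the highest of all members. Psma5 gave 3392 and 3694, a difference of 0.22 ± 0.14. Psma7 gave 5905 and 5635, a difference of 0.031 ± 0.075 from 7 and 8 spots, and was below 0 (-0.068) without scaling. Psma3 and Psma5 were thus higher by more than their spot error and Psma7 was not. Psma3l, a near-identical copy of Psma3 with a probe of its own, gave 5497 and 6234, a difference of 0.28 ± 0.066, and the probes may share transcripts, so that the value of Psma3 is uncertain. The differences of Psma1, Psma2, Psma4 and Psma6 lay between 0.094 and 0.18.

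The beta subunits form the inner rings, where the cutting sites are. Of the 7 constitutive ones, 5 were above 0 and 2 below, with a median of 0.20. Psmb5, the chymotrypsin-like subunit, measured 3687 in C and 4006 in RS, a difference of 0.22 ± 0.20. Psmb6, the caspase-like subunit, gave 4538 and 4908, a difference of 0.21 ± 0.20, and its other probe gave 0.16 ± 0.20. Psmb7, the trypsin-like subunit, gave 1459 and 1284, a difference of -0.085 ± 0.20. None of the catalytic subunits left the 95% range of its spot error. Psmb4, a subunit without a cutting site, gave 9975 and 10882, a difference of 0.22 ± 0.068. Its probe, with 8 spots on the C array and 10 on the RS array, covered scaled values of 5.65 to 5.79 and of 5.83 to 6.15 on the log2 scale, so these spots did not overlap. With the 2 C spots marked as outliers kept, the C range reached 5.87 and overlapped that of RS. Psmb1, Psmb2 and Psmb3 lay between -0.011 and 0.20.

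The immunoproteasome subunits were lower on the RS array, with a median of -0.26. Psmb9, which takes the place of Psmb6, measured 7442 in C and 5578 in RS, a difference of -0.32 ± 0.20. The RS signal was 80.2% of the C signal after scaling, just inside the 25% limit, and Psma3 was just outside it on the other side at 126%. Psmb10, which takes the place of Psmb7, gave 15543 and 12088, a difference of -0.26 ± 0.20. Both rest on 1 spot per array, and both differences stayed negative under every alternative that gave them, from -0.42 to -0.29 for Psmb9 and from -0.36 to -0.24 for Psmb10. Among the 579 genes whose mean scaled signal was within 0.5 log2 units of that of Psmb9, 46 genes (7.94%) were as low or lower.

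Psmb8, which takes the place of Psmb5, had no difference beyond its spot error. Its brighter probe, which the files leave unmapped, measured 23466 in C and 21460 in RS, a difference of -0.03 ± 0.066. Over 10 spots on the C array and 9 on the RS array the scaled values ran from 6.86 to 7.11 and from 6.85 to 7.05, so that the ranges overlapped. The dimmer probe, whose sequence is shown above, gave 7460 and 7331, a difference of 0.073 ± 0.14. The probes of Psmb8 thus differed in direction, each by less than its error.

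Set against the subunit it replaces, each immunoproteasome subunit had the lower difference, a comparison that scaling by a constant leaves as it is. Psmb9 was lower than Psmb6 by a log2 difference of -0.53 ± 0.29, which is 1.8 spot errors. Psmb8 against Psmb5 gave -0.25 ± 0.21 with the brighter Psmb8 probe. Psmb10 against Psmb7 gave -0.18 ± 0.29, less than its error. None of these 3 differences left the 95% range of its error. The median of the core subunits exceeded that of the immunoproteasome subunits by 0.44, and by 0.03 on the second probes, where Psmb8 alone stood for the immunoproteasome.

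Psmb11, the beta subunit of thymus epithelium, measured 24.4 in C and 20.4 in RS, a difference of -0.15 ± 0.29. Its other probe, 2.39 and 5.14, did not stand well above background, and with 1.21 ± 1.57 it ran the other way. Psmb11 lies beside Psmb5 on chromosome 15, with 14825 bases between their probes.

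**Figure D3:**
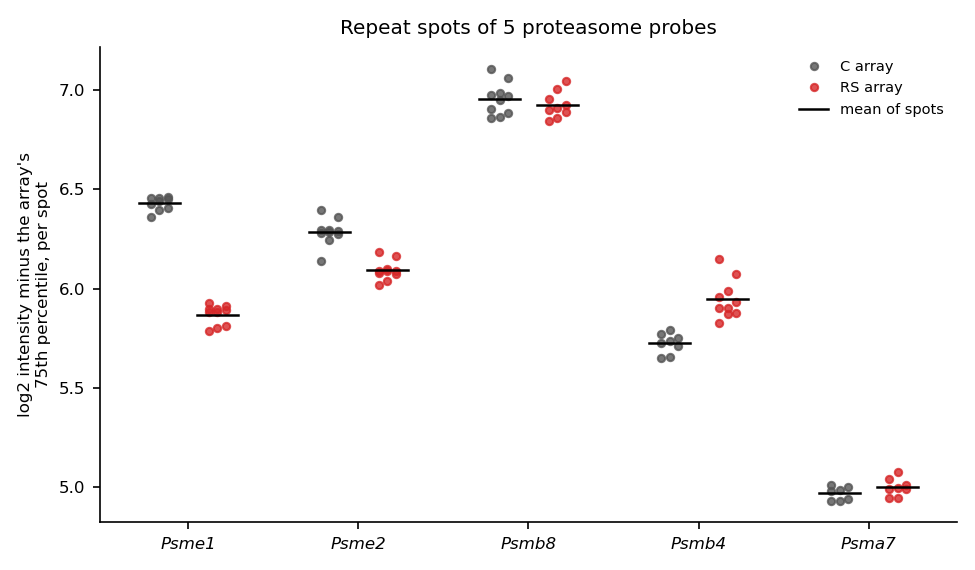
Scaled log2 intensity of every spot used for the 5 proteasome probes printed 10 times, on the C array (gray) and the RS array (red). Bars are means over spots, which are repeats of 1 labeled RNA and not animals. The arrays are apart for Psme1 and Psmb4, though for Psmb4 not with outlier spots kept, and overlap for Psme2, Psmb8 and Psma7.

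The 19S particle recognizes ubiquitin chains and threads proteins into the core. Its 6 ATPases, the ring of unfolding motors, had a median of 0.10 and differences from -0.006 (Psmc4) to 0.18 (Psmc6). The 14 other Psmd genes had a median of 0.084 and ran from -0.10 (Psmd3) to 0.25 (Psmd8). Psmd8, a lid subunit, measured 783 in C and 868 in RS, a difference of 0.25 ± 0.20 and the second highest of the members. Psmd14, the enzyme that removes ubiquitin chains from substrates, gave 549 and 513, a difference of 0.00077 ± 0.20. Psmd4, a ubiquitin receptor, gave 2874 and 3031, a difference of 0.18 ± 0.20. Psmd5, Psmd9 and Psmd10, chaperones that assemble the base, lay between -0.028 and 0.073. In all, 16 of the 20 genes were above 0 and none passed the 25% limit or left the 95% range of its spot error. Psmc1 (0.077 and 0.031) and Psmd11 (0.21 and 0.27) had a pair of probes each that ran the same way. The median of the 20 genes was 0.086, between 0.065 and 0.15 under the other alternatives, and below 0 (-0.012) without scaling, so its direction depends on the scale.

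All 4 activator genes were lower on the RS array, with a median of -0.21. Psme1 encodes the alpha subunit of PA28, the interferon-inducible activator ring that pairs with the immunoproteasome. Its probe, at chr15:33715651-33715710 on build rn4, measured 16272 in C and 10303 in RS, a difference of -0.56 ± 0.066. The RS signal was 67.8% of the C signal, the lowest of the members. The 9 spots of the C array lay between 6.36 and 6.46 on the scaled log2 scale and the 10 of the RS array between 5.79 and 5.92, so no spots overlapped. The difference was about 8.5 spot errors, and it stayed between -0.66 and -0.54 under the alternatives that gave it. Of 285 genes with a mean scaled signal within 0.5 log2 units of that of Psme1, 9 genes (3.16%) were as low or lower. Psme1 is the lowest of 43 members and so stands out by its own value, and this share is not a test. A probe named for a pseudogene of Psme1 gave 10619 and 6465, a difference of -0.62 ± 0.14, and the probes may bind the same transcripts, so they are not independent measurements.

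Psme2 encodes the beta subunit that completes the PA28 ring with Psme1. It measured 14740 in C and 12030 in RS, a difference of -0.19 ± 0.065. Its 10 spots per array ran from 6.14 to 6.40 and from 6.02 to 6.19, so the ranges overlapped between 6.14 and 6.19. Its probe, chr15:33723033-33723182 on the reverse strand, lies 7322 bases from that of Psme1 and crosses an exon junction.
Psme2: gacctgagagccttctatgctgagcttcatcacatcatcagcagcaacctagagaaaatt
Psme3, the PA28 gamma subunit of the nucleus, gave 538 and 458, a difference of -0.13 ± 0.20. Psme4, which encodes PA200, gave 430 and 345, a difference of -0.22 ± 0.20. Psmf1, which encodes PI31, gave 1376 and 1064, a difference of -0.27 ± 0.20. These 3 genes rest on 1 spot per array and none left the 95% range of its spot error.

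The promoters of these genes were read from RefSeq (build GRCr8), which held one for 39 of the 44 members, from 250 bases before the gene start to 50 after. They were searched on both strands for the interferon-stimulated response element (ISRE, GAAANNGAAA), the gamma-activated sequence (GAS, TTCNNNGAA) and the antioxidant response element (ARE, TGACNNNGC). The ISRE was in 6 of the 39 promoters, against 3.92% of all 33469 promoters, and these were Psmb8, Psmb10, Psme2, Psma4, Psmb3 and Psmd7. The GAS was in 4, Psmb8, Psmc6, Psmd3 and Psmd7, against 8.87% of all, and the ARE was in 8, Psma3, Psmb2, Psmb5, Psmb6, Psmd1, Psmd3, Psmd9 and Psme4, against 12.1%. No ISRE lay in the windows of Psme1 and Psmb9, and matches of different motifs did not overlap. Stretches with matches are given 5′ to 3′ on the gene's strand for immunoproteasome and PA28 genes (ISRE) and for the constitutive catalytic subunits with a match (ARE), to show the letters and their surroundings, with the matches in capitals. The ISRE of Psmb8 crosses the gene start, and the other matches shown lie before it.
Psmb10, chr19:50743293-50743382, ISRE: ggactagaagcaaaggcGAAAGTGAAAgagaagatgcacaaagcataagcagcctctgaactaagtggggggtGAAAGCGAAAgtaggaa
Psme2, chr15:33052752-33052831, ISRE: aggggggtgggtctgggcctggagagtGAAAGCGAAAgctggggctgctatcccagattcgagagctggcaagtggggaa
Psmb8, chr20:4657026-4657091, ISRE: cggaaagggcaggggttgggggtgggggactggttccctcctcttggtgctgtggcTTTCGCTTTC
Psmb5, chr15:32047401-32047469, ARE: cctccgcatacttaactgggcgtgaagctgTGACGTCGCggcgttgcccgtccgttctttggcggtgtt
Psmb6, chr10:55737834-55737887, ARE: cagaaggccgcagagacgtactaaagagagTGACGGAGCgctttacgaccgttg
The genes on the reverse strand are Psmb10, Psme2, Psmb8 and Psmb5. Genes with an ISRE were found on both sides of 0, since Psma4 (0.094), Psmb3 (0.20) and Psmd7 (0.041) were above it and Psmb10, Psme2 and Psmb8 (-0.03) below. The same held for the ARE, with 5 genes above 0 and 3 below, Psme4 (-0.22), Psmd3 (-0.10) and Psmd9 (-0.028). A match describes letters and not binding.

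Factors that assemble the proteasome, regulate its genes or associate with it were read from a list of 23 names, of which 19 were measured. Their median was 0.15, with 14 above 0, 3 higher by at least 25% and 1 lower. Among all genes 16.9% were higher and 17.1% lower by this limit. Zfand2a, a proteasome-associated protein of the heat and arsenite response, measured 530 in C and 1186 in RS, a difference of 1.26 ± 0.20 and the only one of these past 2-fold. Nfe2l2, the NRF2 factor of the oxidative stress response, was at 0.72 ± 0.14, and Ddi2, the protease that activates NRF1, at 0.33 ± 0.20. The lowest were Psmg4, an assembly chaperone, at -0.39 ± 0.20, Adrm1, a ubiquitin receptor of the 19S particle, at -0.13 ± 0.22, and Psmg1, another assembly chaperone, at -0.10 ± 0.20.

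For ubiquitin and its conjugation, 17 of 19 listed names were measured, with a median of 0.065 and 12 above 0. Of these, 2 were higher by at least 25% and none lower, beside 16.9% and 17.1% of all genes. Uba6, a ubiquitin-activating enzyme, was at 0.35 ± 0.28, and Ube2d3, a conjugating enzyme, at 0.32 ± 0.065. Ube2d1, another conjugating enzyme, was at -0.30 ± 0.20, and Ube3c, a ligase that works on the proteasome, at -0.13 ± 0.20.

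Class I antigen presentation uses the peptides that the proteasome makes. All 11 listed genes were measured, 8 of them below 0, with a median of -0.12 and 2 lower by at least 25%, a share close to the 17.1% of all genes. Tapbp, the tapasin of the peptide-loading complex, measured 679 in C and 466 in RS, a difference of -0.44 ± 0.20. Nlrc5, the transactivator of class I genes, gave 3254 and 2306, a difference of -0.40 ± 0.20. Tap2, a subunit of the peptide transporter, was at -0.28 ± 0.14. Tap1, the other transporter subunit, whose probes lie between those of Psmb8 and Psmb9 on chromosome 20, was at -0.20 ± 0.21. The highest were Erap1 (0.15 ± 0.14) and Lnpep (0.15 ± 0.20), which trim peptides, and Canx (0.10 ± 0.20), a chaperone.

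Interferon signaling and response genes, which include the inducers of the immunoproteasome, did not share a direction. Of 32 listed genes 30 were measured, 14 above and 16 below 0, with a median of -0.013. By at least 25%, 7 genes were higher and 8 lower, where 16.9% and 17.1% of all genes were, and the difference from these shares was not tested. The lowest were Gbp4, a guanylate-binding protein (-1.93 ± 0.21), Ciita, the class II transactivator (-0.81 ± 0.20), and Oas1a, an antiviral enzyme (-0.69 ± 0.21). The highest were Socs1, an inhibitor of the pathway (1.53 ± 0.27), Ifit3, an interferon-induced protein (0.87 ± 0.26), and Ifngr1, a receptor subunit (0.64 ± 0.20). Ifng, the interferon gamma gene, was not well above background, with 8.86 on the C array and 2.98 on the RS array.

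Heat shock genes, which respond to unfolded proteins, were above 0 in all 9 measured of 10 listed, with a median of 0.38. Of all 21096 genes, 10991 were above 0. By at least 25%, 6 heat shock genes were higher and 0 lower, where 16.9% and 17.1% of all genes were. The difference from these shares was not tested. Hspa1b was not well above background, with 2.3 in C and 2.15 in RS. Hspa1a, the inducible HSP70, measured 46.1 in C and 931 in RS, a difference of 4.43 ± 0.21. Hspb1 was at 0.97 ± 0.065 and Bag3, a cochaperone, at 0.71 ± 0.14. The lowest was Hsp90ab1, the constitutive HSP90, at 0.094 ± 0.20, followed by Hspa8 (0.28 ± 0.20) and Dnajb1 (0.30 ± 0.20).

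**Figure D4:**
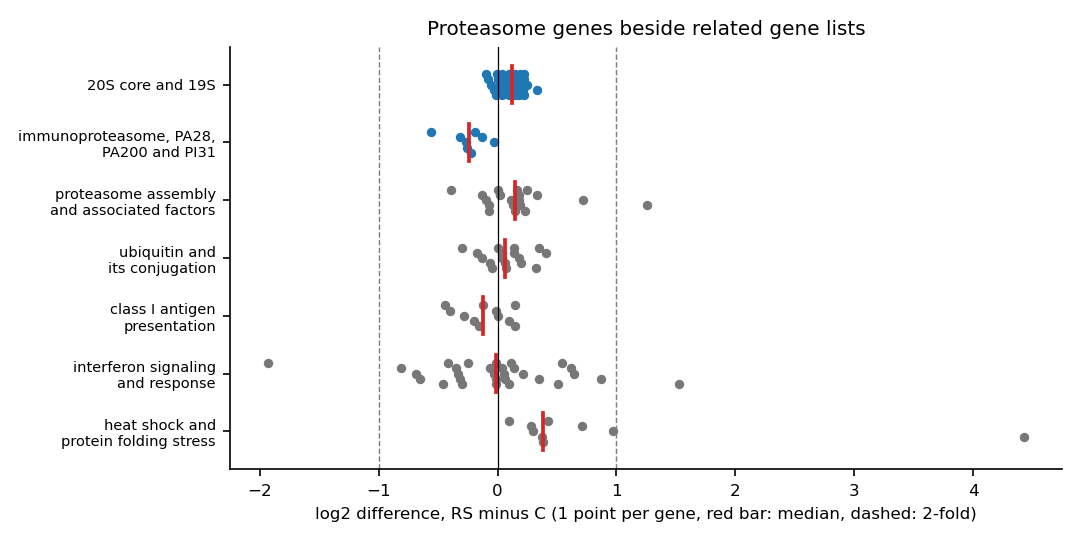
Log2 difference (RS minus C) of proteasome genes (blue) and of genes of related lists (gray), 1 point per gene well above background, with the median as a red bar and 2-fold as dashed lines. The 34 core and 19S genes have a median of 0.12 and the 8 immunoproteasome, PA28, PA200 and PI31 genes one of -0.24, while the class I list has -0.12 and the heat shock list 0.38. The 25 regulatory genes are divided between the blue sets along the signs of their values and together have a median of 0.058. Without scaling the 19S genes fall to a median of -0.012.

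Markers of other cell types differed between the arrays to unlike degrees, most for erythrocytes and fat. Among all genes, 3.46% were at least 2-fold higher on the RS array. All 6 erythrocyte markers above background were at least 2-fold higher on the RS array, with a median of 2.58 and summed intensities of 9985 in C and 55867 in RS, and Slc4a1 was not above background. All 5 fat markers above background were at least 2-fold higher, with a median of 2.74 and sums of 6364 and 15700, while Plin1 and Pck1 were not above background. Of the neutrophil markers, S100a8 and S100a9 were more than 2-fold higher, while Mmp8 (-0.41 ± 0.26) and Csf3r (0.11 ± 0.29) were not, and Mpo and Elane were not above background. Lymphocytes are known to carry the immunoproteasome. T cell markers were lower in 6 of 7 genes, with a median of -0.16 and sums of 31249 and 26144. The B cell median was -0.051, with sums of 15404 and 14481, and the plasma cell median -0.25, with sums of 66777 and 54398. The macrophage median was 0.032, the dendritic cell median -0.086, the endothelial median 0.18 and the stromal median 0.093. Stromal genes ran from -0.56 (Ccl19) to 1.16 (Pdpn), and of the plasma cell genes 4 were below 0 and 1, Prdm1, above (0.72). None of the 4 salivary gland markers on the array was above background, and 2 of 4 skeletal muscle markers were. The part of the cell types in the differences of the proteasome genes was not tested.

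**Figure D5:**
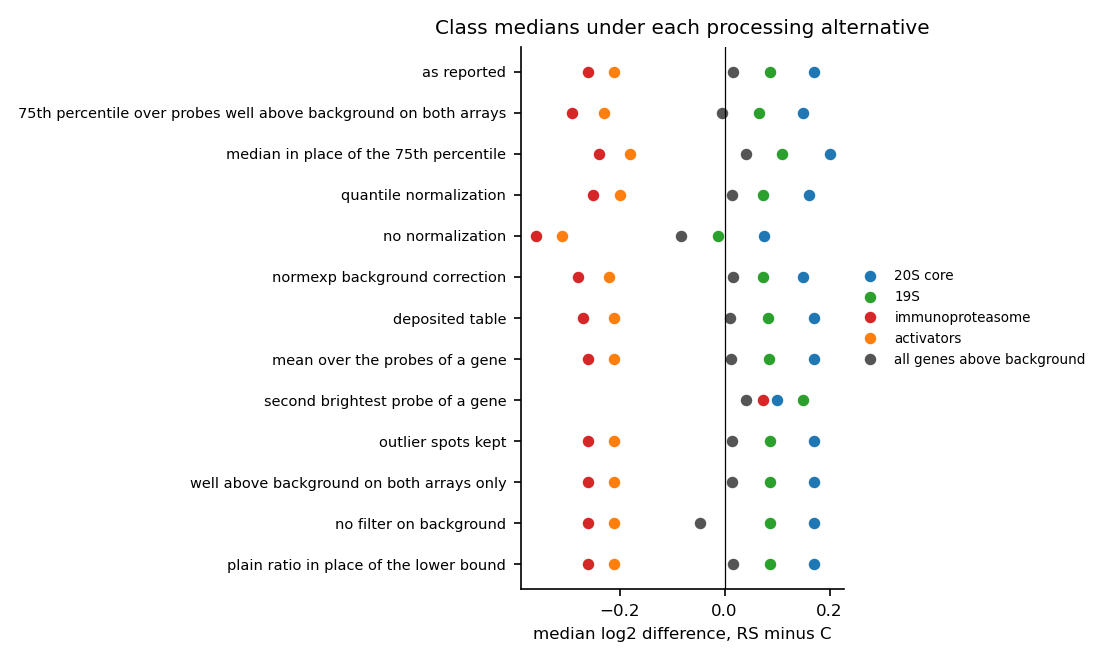
Median log2 difference (RS minus C, x axis) of the 20S core, 19S, immunoproteasome and activator genes and of all genes above background under each way of processing (y axis). The core median stays between 0.075 and 0.20 and the activator median between -0.31 and -0.18. The immunoproteasome median is below 0 except on second probes (0.073, Psmb8 alone), and the 19S median is above 0 except without scaling (-0.012).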

How the data were processed

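The authors labeled lymph node RNA with Cy3, hybridized it to Agilent SurePrint G3 rat arrays and extracted spots with Feature Extraction 11.5.1.1. They deposited background-subtracted spot intensity values, not normalized between arrays, and a table of log2 values per probe. That table had the scale used here, since 100% of its 45598 probes differed from the values computed from the spots by no more than 0.1.

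Control spots and outlier spots (489 on the C array and 660 on the RS array) were left out, repeat spots were averaged per probe on the log2 scale, and each array was shifted by its 75th percentile, as in the study. A probe was well above background when more than 50% of its spots were marked so, and 54.7% and 54.9% of probes were. A gene was its probe with the highest mean signal. No noncontrol spot was saturated, both arrays lay on 1 slide, and the number of arrays limits the precision. With 1 array per group no test was run.

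Values are given for the catalytic and immunoproteasome subunits, activators, PI31, the 5 highest and 5 lowest members, members not above background or with probes of opposite direction, and the 3 highest and 3 lowest genes of each list. Others are named as examples of a role. A few list genes chosen in this way are not reported here. Members and lists were chosen with earlier results of these data known. Of the probes of the 44 members, 42 carried an accession found in RefSeq, all 42 with the same symbol. The results were recomputed in 13 other ways: scaling (4), normexp background correction with an offset of 50, the deposited table, choice of probe, outlier spots, the background filter, the lower bound and calls by spot error. The steps were tested on simulated data. Python 3.11.15 (numpy 2.4.6, pandas 2.3.3, matplotlib 3.10.9) and R 4.3.3 with limma 3.58.1 were used.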

Additional observations from a re-analysis of the deposited data

How the results depend on the processing

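Each group has 1 array, so no replicate could be left out, and a difference cannot be told from variation between animals. No paired analysis was possible because a lone array stands for either condition. Members read from 1 spot per array have spot errors of 0.20 (Psmb11 0.29), larger than most differences of the members. No member passed 2-fold under any of the 12 alternatives. Of 190 values for 17 named members under these alternatives, 183 lay within 1 spot error of the reported value, and Psmb8, Psma7 and Psmb11 changed sign under at least 1. Some alternatives could not move these values, so the count does not measure stability. The background filters and the lower bound left them unchanged because the members used were above background on both arrays. The mean over probes left genes with 1 probe unchanged.

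Without scaling, all medians moved down: that of all members to -0.025, core 0.075, regulatory -0.04, 19S -0.012 and activators -0.31, with 18 members above and 25 below 0, 0 higher and 4 lower by at least 25%, while the median of all genes moved from 0.016 to -0.083. Second probes existed for 5 members above background, all above 0 and 0 below, with medians of 0.10 for the core, 0.15 for the regulatory and for the 19S genes and 0.073 for the immunoproteasome (Psmb8), a core minus immunoproteasome gap of 0.03, and 0 past 25% in each direction, since fewer genes were read there. The number lower by at least 25% was 2 instead of 1 with the percentile over probes above background on both arrays, quantile normalization, normexp, the deposited table and calls by the 95% range of the spot error. The number higher by at least 25% was 0 with that percentile and with normexp, and 2 with the mean over probes. The cause of these changes was not tested.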
